A study of Mus musculus with 2 samples.

Results

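The CCN proteins are secreted, cysteine-rich proteins of the extracellular matrix that regulate cells rather than hold tissue together, and are therefore called matricellular. Probe sets were taken as members when the platform annotation gave exactly 1 gene symbol and that symbol was Ccn1, Ccn2, Ccn3, Ccn4 or Ccn5 (formerly Cyr61, Ctgf, Nov, Wisp1 and Wisp2). The rule found 10 probe sets of 5 genes, out of 18194 genes that have such a probe set, and used no measured value. Expression was profiled on Affymetrix Mouse Genome 430 2.0 arrays in osteoblastic cells of C57Bl/6 mouse embryos (femur and tibia) at stage E18.5. Ebf2 belongs to the early B cell factor family of transcription factors, and the title of the study links it to haematopoietic stem cells through the cells around them.

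Both groups carry the Ebf2-lacZ marker; Ebf2+/- animals are heterozygous and Ebf2-/- animals knockout for Ebf2. The cells were loaded with FDG, a substrate that fluoresces once beta-galactosidase cleaves it, sorted for the marker, and expanded without passage in alpha MEM with 10% serum. The profiles are therefore those of cells sorted for the marker and then cultured, with the heterozygote as the control and no wild-type array analysed here. Each genotype is represented by 1 array. The labels give 3 mice per genotype without saying whether their RNA was pooled, so no difference below has a replicate check and no p-value was computed. The 3 Ebf2 probe sets lay near or below background on both arrays (24.9 and 20.6 for the brightest), so Ebf2 does not check the labels. A 2-fold ratio of knockout over heterozygote signal serves as the reference size.

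CCN proteins are built from a shared string of modules that resemble insulin-like growth factor binding proteins, von Willebrand factor type C repeats and thrombospondin type 1 repeats, followed by a cystine knot that Ccn5 lacks. They bind integrins, heparan sulphate proteoglycans and LRP receptors, and capture growth factors such as BMPs, TGF-beta and VEGF. Ccn1 and Ccn2 are immediate early genes and widely used reporters of the transcription factors YAP, TAZ and TEAD, of SRF and of TGF-beta. Ccn2 is abundant in cartilage, Ccn4 is expressed in the osteoblast lineage, and the older names of Ccn4 and Ccn5 come from their induction by Wnt1.

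In the knockout cells Ccn3 was 3.83-fold and Ccn1 2.52-fold higher than in the heterozygote, Ccn5 was just under 2-fold higher and Ccn4 was 1.57-fold higher. Ccn2 was the exception, with a signal 1.37-fold lower in the knockout. All 10 probe sets stood above background on both arrays, where the background floor was 17.8 for the heterozygote array and 23.8 for that of the knockout, each the 95th percentile of 86 probe sets of odorant, pheromone and taste receptors. By the brightest probe set of each gene, 2 of the 5 genes were higher by 2-fold or more, beside 6.30% of the 11785 genes above background on at least 1 array (the measured genes), and 0 were lower by 2-fold or more, beside 3.46%. A higher signal of any size was found for 4 of the 5 and for 52.1% of measured genes. That share is inflated, since it counts genes whose ratio was set by the floors alone. These are among 609 measured genes without a fold, above background on the heterozygote array only. Of the 10 probe sets, 6 were past 2-fold upwards and 0 downwards, beside 6.58% and 3.61% of measured probe sets. The median log2 ratio of the 5 genes was 0.98, against 0.03 for all measured genes and 0.001 for genes above background on both arrays.

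**Figure D1:**
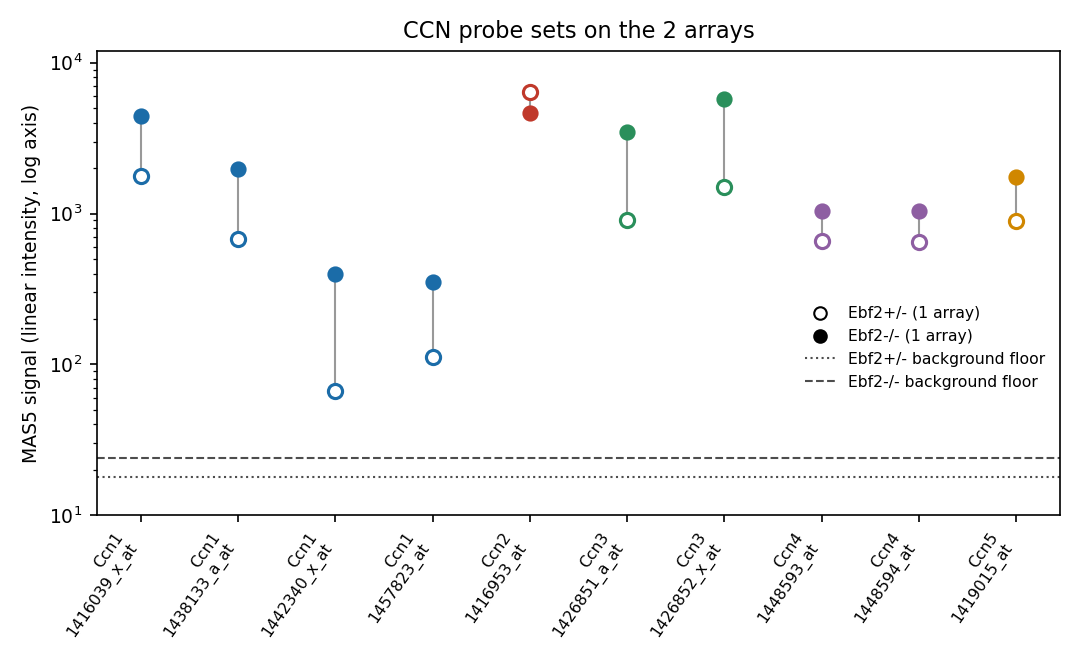
MAS5 signal (linear intensity, log axis) of each CCN probe set on the Ebf2+/- array (open circles) and the Ebf2-/- array (filled circles), 1 array each, with the background floor of each array as a horizontal line. The filled circle is the higher one for 9 of 10 probe sets, and the single Ccn2 probe set runs the other way, from 6347 to 4641.

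The 2 arrays carried different signs of RNA quality and of cell makeup. The 3' over 5' control ratio, which grows as RNA degrades, was 1.97 (heterozygote) and 2.79 (knockout) by beta-actin, and 1.30 and 1.60 by Gapdh. Of the osteoblast markers, 6 of 10 with a probe set were above background, while Ibsp, Dmp1, Phex and Sost, markers of mineralising osteoblasts and osteocytes, were below it on both arrays. Macrophage and leukocyte markers (16 of 17 above background) had a summed signal of 9869 (heterozygote) against 2339 (knockout), and 16 of them were at least 2-fold lower. Chondrocyte markers (13 of 19) summed to 18317 and 6160.2, with 8 at least 2-fold lower. Adipocyte markers (6 of 9) summed to 834 and 2910.2, with 5 higher by 2-fold or more and 1 lower. In such bulk RNA fewer cells of a type and less RNA per cell cannot be told apart. The part of these differences in the CCN values was not tested.

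Ccn3 (gene ID 18133) encodes a CCN protein known for restraining proliferation in several cell types and for binding Notch1. Its brighter probe set, 1426852_x_at, read 1509 in Ebf2+/- and 5782 in Ebf2-/- cells. The other, 1426851_a_at, read 900.5 and 3468. The ratios were 3.83-fold and 3.85-fold, so both reported nearly the same difference. They were designed from one sequence record and are not independent measurements of the transcript. Across the arrays 141 of the measured genes, 1.2%, had a higher ratio than Ccn3, and its log2 ratio of 1.94 ranged from 1.76 to 1.94 over 10 other ways of processing the signals. Of these, the setting without _x_at and _a_at probe sets kept both, since Ccn3 has no others.

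Ccn1 (gene ID 16007) encodes a ligand of several integrins that promotes cell adhesion and blood vessel growth and is induced within minutes by serum. It has the most probe sets of the family, and all 4 were past 2-fold upwards in the knockout. The brightest, 1416039_x_at, read 1764 in Ebf2+/- and 4443 in Ebf2-/- cells, a ratio of 2.52-fold. Probe set 1438133_a_at read 678 and 1986, a ratio of 2.93-fold. The dimmer pair, both designed from one sequence record, gave 3.12-fold for 1457823_at (113 and 352) and 5.94-fold for 1442340_x_at (66.7 and 396). The 4 probe sets therefore share the direction and differ in size, with a mean log2 ratio of 1.77 ± 0.55 (SD over 4 probe sets of the same arrays). The largest of them is also the dimmest in the heterozygote, and with a pseudocount of 50 its log2 ratio went from 2.57 to 1.94. Of measured genes, 387 (3.28%) had a higher ratio than the 2.52-fold of the brightest Ccn1 probe set.

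The promoter of Ccn1 was the only one of the family in the RefSeq promoter table, and is shown because Ccn1 serves as a reporter of TEAD factors, whose targets are compared further on. The 250 bases before the annotated start, chr3:145649986-145650235 (GRCm38.p6, minus strand), are printed 5′ to 3′ with the match to the TEAD motif GGAATG in capitals.
Ccn1 promoter: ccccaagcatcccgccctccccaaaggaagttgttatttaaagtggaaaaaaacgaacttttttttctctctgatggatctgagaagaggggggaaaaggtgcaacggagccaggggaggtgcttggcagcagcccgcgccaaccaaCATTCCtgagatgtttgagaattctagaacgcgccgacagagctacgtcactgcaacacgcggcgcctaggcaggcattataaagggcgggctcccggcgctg
Motifs were searched on both strands. GGAATG matched once, on the strand opposite to the gene, 103 to 98 bases before the start, and 12.6% of the 32851 promoter windows of that length hold the motif. The CArG box of SRF, the EBF motif CCCNNGGG, the SMAD motif CAGAC and the TCF and LEF motif TCAAAG had 0 matches in this window, and are held by 1.47%, 11.8%, 42.2% and 13.8% of windows.

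Ccn2 (gene ID 14219), the connective tissue growth factor, promotes matrix production and is a classical target of TGF-beta. Its only probe set, 1416953_at, read 6347 in Ebf2+/- and 4641 in Ebf2-/- cells, 1.37-fold lower (log2 ratio -0.45). A lower ratio was found for 1898 of the measured genes, 16.1%. The difference is about the size of the SD between probe sets of one gene (0.44 in log2, a factor of 1.36, over 4119 genes) and larger than that SD among genes above 500 on both arrays (0.24, over 457 genes). The lower signal was seen under all 10 other ways of processing, with log2 ratios from -0.63 to -0.45. Ccn2 has 1 probe set well above the floor, so the floor and probe set settings could not change this value.

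Ccn4 (gene ID 22402) is expressed by osteoblasts and their progenitors and favours bone formation. Its probe sets read 658 and 1035 (1448593_at) and 643 and 1045 (1448594_at). The signals were thus higher in the knockout by both, 1.57-fold and 1.63-fold, but the probe sets come from one sequence record. Of the measured genes, 1598 (13.6%) had a higher ratio. After scaling to the spike-in transcripts the log2 ratio of 0.65 became 0.48.

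Ccn5 (gene ID 22403), which lacks the C-terminal module and often opposes Ccn2, had 1 probe set, 1419015_at. It read 889 in Ebf2+/- and 1753 in Ebf2-/- cells, 1.97-fold higher (log2 ratio 0.98), and 777 measured genes (6.59%) had a higher ratio. Ccn5 lies so near the reference size that the scaling decides its side: its log2 ratio was 1.04 after lowess scaling, which puts 3 CCN genes past 2-fold, and 0.80 after spike-in scaling.

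**Figure D2:**
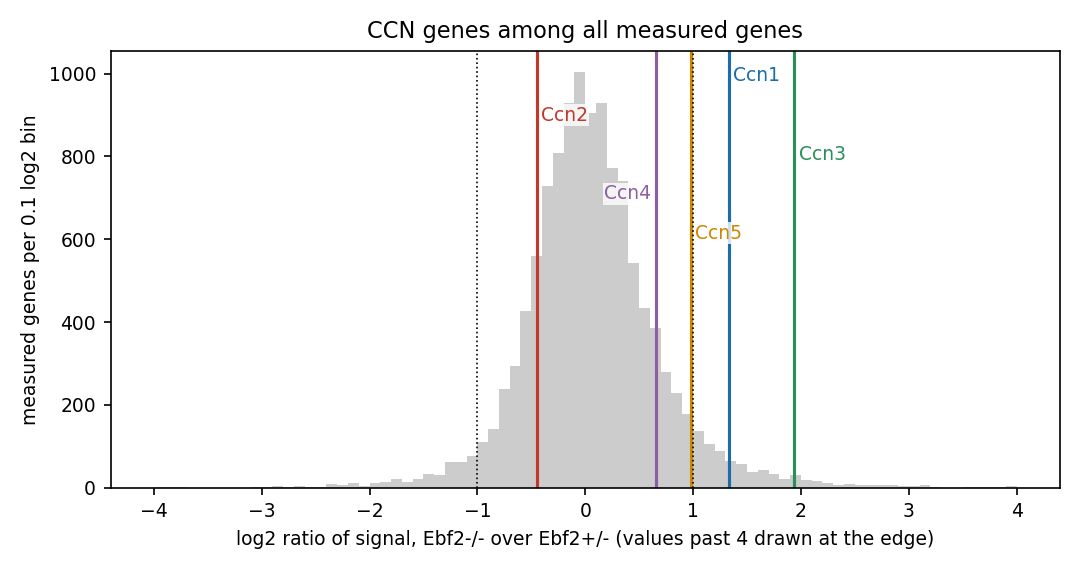
Histogram of the log2 ratio of knockout over heterozygote signal for the 11785 measured genes, with a coloured line at each CCN gene (value of its brightest probe set) and dotted lines at 2-fold. A gene above the floor on 1 array only is drawn at its floor-set ratio. Ccn3 (1.94) and Ccn1 (1.33) lie past the dotted line, Ccn5 (0.98) on it, Ccn4 (0.65) inside it and Ccn2 (-0.45) on the side of lower signal.

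The members thus differed among themselves. Ordered by log2 ratio they ran Ccn3, Ccn1, Ccn5, Ccn4 and Ccn2. Of the 10 pairs of members, 7 had ratios further apart than 0.62 in log2, the SD of a difference between probe sets given the error above. Every pair with Ccn2 was among them, the smallest gap being with Ccn4 (1.11) and the largest with Ccn3 (2.39). Ccn1 and Ccn3 (0.60 apart), Ccn1 and Ccn5 (0.35) and Ccn4 and Ccn5 (0.32) were closer than that SD. The error behind it includes dim probe sets. Among genes above 500 on both arrays the SD between probe sets was smaller (0.24 against 0.44), which could set more pairs apart. Either SD describes probes on the same arrays and leaves out animals and cultures.

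A constant scaling factor shifts all members together. Lowess scaling, which depends on the signal, instead lowered Ccn2 to -0.50 and raised Ccn4 to 0.72 and Ccn5 to 1.04. With the arrays set equal on the spike-in transcripts, the log2 ratio of Ccn3 was 1.76, that of Ccn1 1.16, that of Ccn5 0.80, that of Ccn4 0.48 and that of Ccn2 -0.63, so the order was kept and Ccn1 and Ccn3 stayed past 2-fold. The same scaling moved the median of genes above both floors to -0.17, and gave 528 genes higher and 625 lower by 2-fold or more in place of 742 and 408. The choice of probe set moved only Ccn1 noticeably, to 1.77 as a mean over its probe sets.

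The CCN genes were bright, and large ratios are rarer among bright genes. Of 1777 genes above 500 on both arrays, 2.64% were higher by 2-fold or more and 0.506% lower, a background chosen after the signals had been seen. The brightest probe set of each CCN gene lies in this range. Ccn6, the remaining relative, read 9.13 and 10.7 and was below the floor on both arrays.

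**Figure D3:**
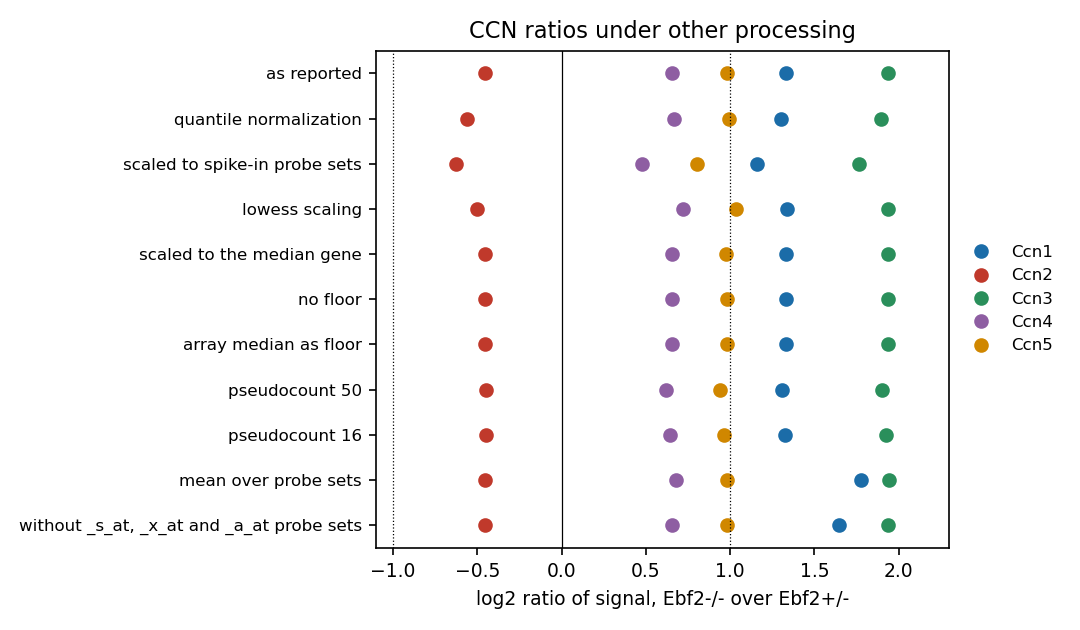
Log2 ratio of knockout over heterozygote signal of each CCN gene (coloured points) as reported and under 10 other ways of processing, with dotted lines at 2-fold. Each gene keeps its side of 0 in every row, and Ccn5 crosses the 2-fold line with lowess scaling (1.04).

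Ccn1 and Ccn2 are read as reporters of YAP, TAZ and TEAD. They went in opposite directions here, and the medians of the pathway and of its other targets lay between them. Both of these lists hold Amotl2, Lats2 and Ptpn14. YAP and TAZ are co-activators that the Hippo kinases hold out of the nucleus. Yap1 read 737 in Ebf2+/- and 662 in Ebf2-/- cells and Tead1 725 and 855. Wwtr1 (TAZ) read 998 and 905 by its brightest probe set, but its 3 probe sets ran from -0.14 to 1.24 in log2 ratio and their mean was 0.60. Of 23 measured Hippo pathway genes 1 was past 2-fold upwards and 0 downwards, with 0 to 2 and 0 to 1 over other ways of processing (median log2 ratio -0.06, from -0.24 to 0.11). Of 20 measured YAP and TEAD target genes other than the CCN genes, 2 were past 2-fold upwards, Igfbp3 (72.5 and 608) and Crim1 (46.6 and 229, with a log2 ratio of -0.60 by its other probe set), and 1 downwards, Dock5 (163 and 73.5, but less than 2-fold when its probe sets are averaged). Their median of 0.05 (from -0.12 to 0.17 over other ways of processing) lies below Ccn1 and above Ccn2, and the counts were 1 to 2 upwards and 0 to 2 downwards. Ankrd1, a standard YAP reporter, read 98.3 and 62.1, lower in the knockout like Ccn2 and unlike Ccn1. Of all measured genes, 6.30% were past 2-fold upwards and 3.46% downwards. The part of YAP, TAZ and TEAD in the CCN values was not tested.

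Of 18 measured targets of SRF, which also drives Ccn1, 0 were past 2-fold in either direction. Their median log2 ratio was 0.11, from -0.07 to 0.25 over other ways of processing, where at most 1 was past 2-fold. By the brightest probe set of each, all 18 had smaller ratios than Ccn1. The largest was Tgfb1i1, a focal adhesion adaptor (899.6 and 1594). Srf itself had a log2 ratio of -0.29 by its brightest probe set but 1.46 by its other one, above Ccn1 (1.33).

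Of 15 measured target genes of TGF-beta, the classical inducer of Ccn2, 4 were past 2-fold upwards and 1 downwards (median log2 ratio 0.06, from -0.11 to 0.11). The upward count was 2 with spike-in scaling and 2 as a mean over probe sets, and the downward count was 1 to 2 over other ways of processing. Ltbp2, a microfibril protein, was 4.71-fold higher, whereas Ltbp1, which holds latent TGF-beta in the matrix, was 3.26-fold lower by its brighter probe set and had a log2 ratio of 0.05 by the other measured one. Smad7, the inhibitory SMAD, read 68.7 and 140 by its brighter probe set and had a log2 ratio of -0.33 by the other. Targets of TGF-beta thus lay on either side, as Ccn1 and Ccn2 did.

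Ccn1 and Ccn2 are also immediate early genes, switched on quickly by serum, stretch or handling. Of 22 others measured, 8 were past 2-fold upwards (5 with spike-in scaling) and 1 downwards (0 as a mean over probe sets), around a median of 0.50 in log2 (from 0.33 to 0.65), which is below Ccn1 (1.33). The AP-1 subunits Fosb and Junb were 9.12-fold and 3.05-fold higher and the nuclear receptor Nr4a1 4.30-fold, while Fosl1 was 4.63-fold lower by its brighter probe set, with a log2 ratio of 0.51 by the other. Fos and Egr1, chosen once their values had been seen, were 2.15-fold and 2.18-fold higher, and under 2-fold with spike-in scaling. Dusp1, a phosphatase of MAP kinases, read 2027 and 1482, the same log2 ratio (-0.45) as Ccn2.

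Ccn4 and Ccn5, named for their induction by Wnt1, were both higher in the knockout, 1.57-fold and 1.97-fold, while of 10 measured canonical Wnt target genes 1 was past 2-fold upwards and 0 downwards (median log2 ratio 0.05, from -0.13 to 0.24). Over other ways of processing 1 to 3 were upwards and 0 to 1 downwards. Over the 9 genes above background on both arrays the median was 0.46. The gene past 2-fold as reported was Lgr5, the R-spondin receptor (61.8 and 782). Axin2, a feedback inhibitor that reports the pathway, read 40.5 and 29.4, lower in the knockout where Ccn4 and Ccn5 were higher. These signals lie near the floors, and the other Axin2 probe set was below both floors, so it gives no second ratio.

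**Figure D4:**
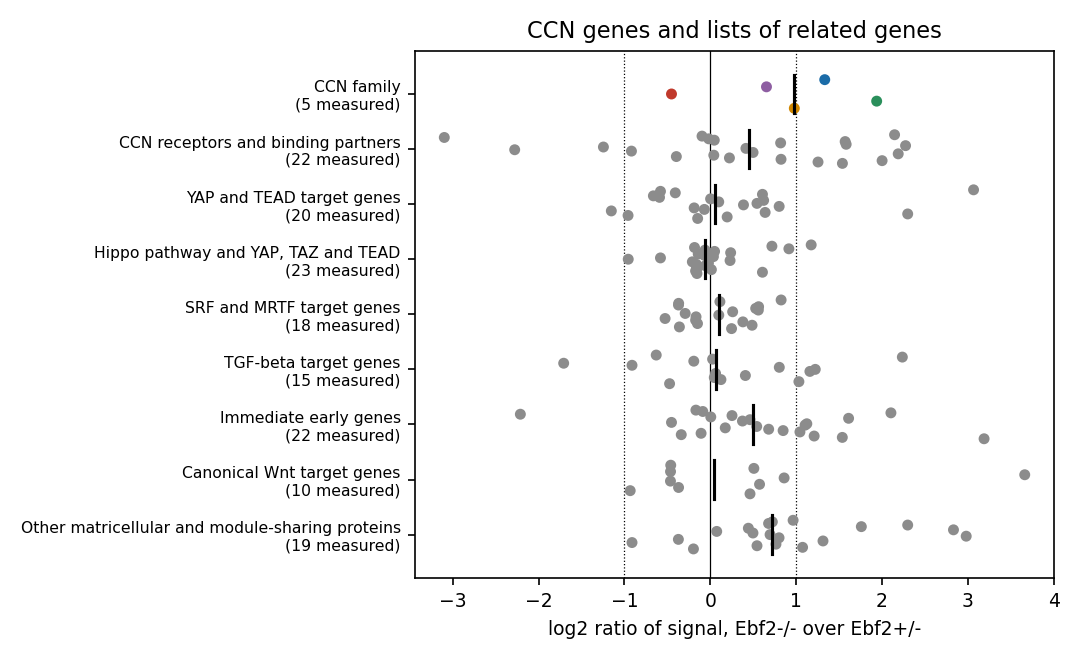
Log2 ratio of knockout over heterozygote signal of each measured gene in the CCN family (colours as in the other plots: Ccn1 blue, Ccn2 red, Ccn3 green, Ccn4 purple, Ccn5 orange) and in 8 lists of related genes (grey), with the list median as a black bar and dotted lines at 2-fold; vertical spread within a list carries no value, and a gene above the floor on 1 array only is drawn at its floor-set ratio. The medians are 0.98 for the CCN genes, 0.72 for other matricellular proteins, 0.50 for immediate early genes and 0.46 for CCN receptors and partners, and lie between -0.06 and 0.11 for the other lists.

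Receptors and partners of the CCN proteins were split. Of 22 measured, 8 were past 2-fold upwards and 3 downwards (median log2 ratio 0.46, from 0.26 to 0.50). Over other ways of processing 6 to 8 were upwards and 2 to 4 downwards. Of the integrin chains of the main Ccn1 and Ccn2 receptors, Itgav read 1629 and 1524, and Itgb1 1614 and 1227. Itgb1 was thus 1.31-fold lower in the knockout, and was lower by each of its 3 measured probe sets. Itga5, which pairs with Itgb1, was 4.84-fold higher by its brightest probe set (55.2 and 267), with a log2 ratio of 0.25 at the lowest among its 3 measured probe sets. Of the receptors of Ccn2, Lrp6 was 2.91-fold higher (211 and 612; log2 ratio 0.37 by its other probe set) and Lrp1 read 942 and 1256. Itgb2, a chain of the leukocyte receptor for Ccn1 and Ccn2, was 8.56-fold lower (226 and 26.4). It is itself counted among the leukocyte markers, as is its partner Itgam, which was below the floor on both arrays. Aggrecan, Acan, a cartilage proteoglycan that binds Ccn2, was 4.85-fold lower and is itself counted among the chondrocyte markers.

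Among the 8 lists of related genes, markers of cell types left aside, the median nearest to that of the CCN genes was that of other matricellular proteins and proteins with CCN modules. Of 19 measured, 6 were past 2-fold upwards and 0 downwards (4 to 6 and 0 to 1 over other ways of processing). Their median was 0.72 in log2 (from 0.54 to 0.75), with 0.98 for the CCN genes. Chrdl1, a BMP antagonist with the von Willebrand type C repeats of the CCN proteins, was 7.89-fold higher, and Thbs4, a thrombospondin of tendon, 7.12-fold. Periostin, Postn, read 2884 and 9763, a ratio of 3.39-fold, between those of Ccn1 and Ccn3.

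Likeness between genes was measured as the distance between log2 ratios, over the 138 genes of these lists above background on both arrays and over 2 arrays only. Closest to Ccn1 (1.33) were the fibulin Fbln2 (1.31) and perlecan, Hspg2 (1.25). Closest to Ccn3 (1.94) were the fibulin Fbln1 (2.00) and Nr4a1 (2.10). Ccn5 (0.98) lay nearest to tenascin N, Tnn (0.96), and Smad7 (1.03 by the brighter of its probe sets), and Ccn4 (0.65) nearest to tissue factor, F3 (0.64), and the BMP regulator Bmper (0.68). Ccn2 (-0.45) lay nearest to Dusp1 (-0.45) and Nkd2 (-0.46). Many genes share a ratio over 2 arrays, so these pairs describe size and direction only.

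The remaining marker lists were read on the same arrays. Of 10 measured fibroblast and progenitor markers 5 were past 2-fold upwards and 0 downwards, with summed signals of 5747 and 12646. Their median log2 ratio, 0.93, was nearer to that of the CCN genes than the median of any list of related genes, but was 0.49 over the 9 above background on both arrays. Of 10 pericyte and smooth muscle markers 3 were upwards and 1 downwards, of 6 Schwann cell markers 0 and 4, and of 6 osteoblast markers 2 and 1. The osteoblast median log2 ratio was 0.86, and as low as 0.42 over other ways of processing. The 2 upward genes were Alpl, near the floors (25.4 and 51.8), and Col1a1, with a log2 ratio of -0.49 by its other probe set. Msx2, the downward gene, had -0.38 by its other probe set. Endothelial markers (3 of 10 above background, 1 upwards) and skeletal muscle markers (2 of 10, 1 upwards) were mostly below the floor. Their part in the CCN values was not tested either.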

How the data were processed

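The value table holds 1 array for each genotype. The authors deposited 1 linear intensity for each of 45101 probe sets, computed with MAS5 per the submitters' processing notes (version not given in the sources used here). Without the lowest and highest 2%, the mean of the deposited intensities was 100.0 on both arrays, so that a shift common to most genes is hidden. Of the probe sets, 34958 had 1 gene symbol, 932 several (none of a CCN gene) and 9211 were not listed; 34754 matched the RefSeq gene table (GRCm38.p6) by gene ID and 0 symbols changed.

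Where a gene had several probe sets, the one with the highest mean over the log2 signals of both arrays was used. Signals below the floor were set to it before the log2 ratio was taken, a gene above the floor on 1 array only gives a lower bound ("at least"), and no fold is given for 609 such genes that did not rise over the other array's floor. The number of arrays limits the precision, and with 1 array per genotype nothing was tested. The 18 spike-in probe sets had log2 ratios of 0.18 ± 0.15 (mean and SD, 18 probe sets). The scripts (Python 3.11.15, pandas 2.3.3, numpy 2.4.6, lowess from statsmodels 0.14.6) were tested on simulated data.

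The members, 8 lists of related genes and 9 marker lists were chosen with earlier results of these data known. Named are every CCN probe set, the 4 largest ratios either way of each list of related genes and the 2 largest of each marker list, genes given by symbol (Yap1, Wwtr1, Tead1, Itgav, Itgb1, Lrp1, Lrp6, Axin2 and Ankrd1, with 1 more that is not reported here), and the 2 genes closest to each member in log2 ratio. Those that matter are printed, and list members outside the rule are named as examples or as below the floor. Promoter sequence is from RefSeq.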

Additional observations from a re-analysis of the deposited data

How the results depend on the processing

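Each value was recomputed with 4 other scalings (quantile, spike-in, lowess and median gene). Further settings used no floor, the array median as floor, and pseudocounts of 50 and 16. The last settings took the mean over probe sets, or left out probe sets ending in _s_at, _x_at or _a_at. Ccn3 has only such probe sets, which were kept. The floor settings could not change any CCN gene, whose signals stood well above the floors. Nor could the probe set settings change Ccn2 and Ccn5, with 1 probe set each, or the last setting Ccn3 and Ccn4. Over these 10 settings the log2 ratio ranged from 1.16 to 1.77 for Ccn1, from 1.76 to 1.94 for Ccn3 and from 0.80 to 1.04 for Ccn5. It ranged from 0.48 to 0.72 for Ccn4 and from -0.63 to -0.45 for Ccn2. None of the 5 changed direction or moved by more than the SD between probe sets (0.44). Ccn1, at 1.77 as a mean over its probe sets against 1.33 as reported, nearly reached that SD. Its shift was larger than the SD among genes above 500 on both arrays (0.24). Spike-in scaling put the median of genes above both floors at -0.17 and changed the split of calls: 528 genes were past 2-fold upwards and 625 downwards, against 742 and 408. With a pseudocount of 50 the counts were 280 and 134, without a floor 932 genes were lower, and as a mean over probe sets 241 were lower. The mean also takes in probe sets below both floors, whose ratio is set by the floors alone and is upward. With it the median of genes above both floors was 0.11, against 0.001 as reported. The highest medians of the Hippo, YAP and TEAD target and Wnt target lists came from this setting. No paired analysis was possible because each genotype has 1 array, and for the same reason no replicate could be left out. Signals near the floor limit the size of a ratio, which touches the dim list genes and no CCN gene.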
